A study of Mus musculus with 3 samples.

Results

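MicroRNA processing and Argonaute genes were examined in mouse regulatory T cells, a class of CD4 T cells that holds immune reactions in check and depends on the transcription factor Foxp3. The set held 8 genes of the 55536 mouse genes in the gene table. These were Drosha, Dgcr8, Xpo5, Dicer1, Tarbp2, Ago1, Ago2 and Ago3, chosen by their role in the pathway and found by symbol and gene identifier. Polyadenylated RNA was sequenced from cells of the mouse strain Foxp3CreERT2 x Rosa26YFP, taken from a male adult of 4 months. The Foxp3CreERT2 allele places a tamoxifen-inducible Cre under the control of Foxp3, and Rosa26YFP is a reporter that Cre turns on. The labels name a bone marrow haematopoietic cell as the origin of the cells and describe 3 libraries as technical replicates of 1 biological replicate. They are called libraries 1, 2 and 3 here. All of them form 1 group, so no condition was compared, and every spread and p-value below measures differences between these libraries, which may be technical.

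MicroRNAs are short RNAs that lower the output of messenger RNAs carrying a matching site. In the nucleus, the nuclease Drosha and its RNA-binding partner Dgcr8 form the microprocessor, which cuts a hairpin out of a long primary transcript. Exportin 5, the product of Xpo5, carries the hairpin to the cytoplasm together with the GTPase Ran. There the nuclease Dicer1, with its partner Tarbp2, cuts the hairpin to a duplex, and an Argonaute protein takes up one strand as its guide. In mice, loss of Dicer1 or of Drosha in Foxp3-positive cells is known to cause severe autoimmune disease.

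The gene totals were 8284381 to 9299054 expected counts per library, of which the 8 genes together took 2831, 4092 and 3806 counts in libraries 1, 2 and 3, or 0.0304%, 0.0445% and 0.0459%. Intervals and limits given below cover counting error only, since the reads carry no molecular identifiers in these files. The regulatory T cell markers Foxp3, Il2ra, Ctla4, Ikzf2 and Tnfrsf18 were all detected, and their summed level was 1604.69 to 1721.69 TPM (a level per length, scaled to the same total in each library). All 4 T cell markers were detected too. Markers of some other cells differed widely between libraries, and the labels do not say whether 1 RNA preparation was used for all of them. The 3 red cell markers summed to 1199.12, 4.99 and 1075.67 TPM in libraries 1, 2 and 3, the 3 plasma cell markers to 1940.43, 205.35 and 1283.20 TPM, and the 3 neutrophil markers to 25.6, 0 and 0.670 TPM, with Elane listed at 0 throughout. The plasma cell sum was mostly Igkc, at 1841.75, 200.60 and 1203.18 TPM in libraries 1, 2 and 3. Sdc1, also a plasma cell marker here, was below 1 TPM in each library, with 0.21, 0.33 and 0.30 TPM from 5, 5 and 4 counts in the same order. These counts are too few to rank the libraries. The 4 B cell markers summed to 55.4 to 106 TPM and the 3 markers of macrophages and monocytes to 15.3 to 35.8 TPM, with library 3 highest for both. The part of these cells in the results was not tested. In bulk RNA, fewer cells of a type and less RNA per cell cannot be told apart.

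All 8 genes reached 1 TPM in each of the libraries, the level called detected here, whereas 45.9% of protein-coding genes (10120 of 22028) reached that level. Their levels were moderate. The median of their mean levels was 12.4 TPM, against 20.1 TPM for the detected protein-coding genes. Tarbp2 and Xpo5 were the highest and stood at percentiles 59.4 and 58.5 of the detected protein-coding genes by mean TPM. Dicer1 and Ago1 were the lowest, at percentiles 22.9 and 22.3. By mean TPM the order was Tarbp2, Xpo5, Dgcr8, Ago3, Ago2, Drosha, Dicer1 and Ago1. The ranges of every pair of neighbours in that order overlapped. Xpo5 was above Dgcr8, and Ago3 above Ago2, in 3 of 3 libraries, and each other neighbouring pair kept its order in 2 of 3.

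**Figure D1:**
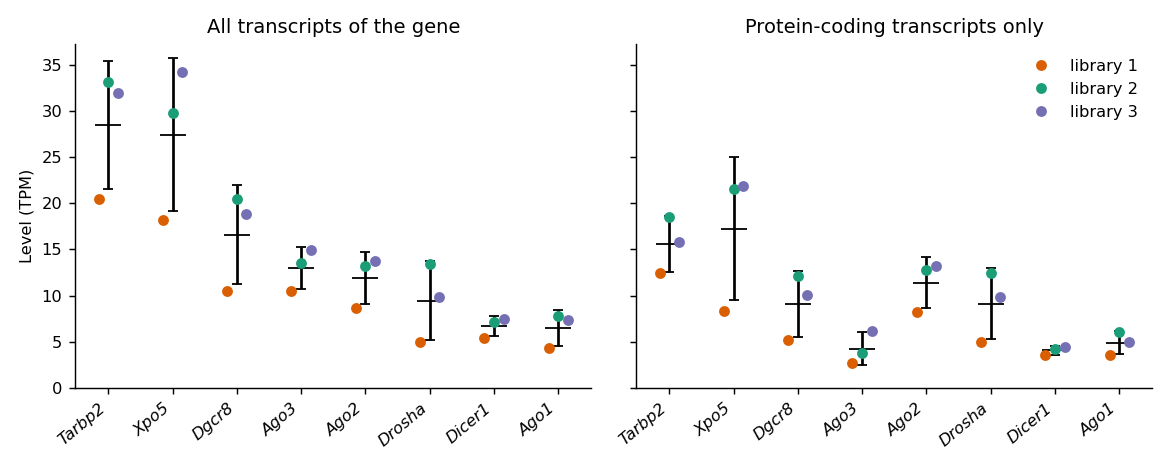
Level in TPM of each gene in libraries 1, 2 and 3 (points), with the mean and SD over the libraries (black bars), over all transcripts of the gene at left and over its protein-coding transcripts at right. Library 1 is the lowest point of every gene in both panels, and Ago3 averages 13.0 TPM at left but 4.24 TPM at right.

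Drosha, the nuclease of the microprocessor (mm10, chromosome 15, 12824815 to 12935291, plus strand), had 5.02, 13.48 and 9.89 TPM in libraries 1, 2 and 3, a mean of 9.46 ± 4.25 TPM (SD, n = 3). It rested on 177, 384 and 268 expected counts. The lowest was library 1 and the highest library 2, and after scaling for library size the counts differed 2.02-fold between these, the widest span among the 8 genes. The difference was larger than counting error (adjusted p = 3.13e-13, chi-square test of homogeneity on TMM-scaled totals with Benjamini-Hochberg adjustment over 13071 genes, as for each adjusted p below unless another setting is named). With library 1 left out, libraries 2 and 3 still differed (adjusted p = 0.0169), library 2 being 1.28-fold above library 3 (95% interval 1.09 to 1.498).

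Dgcr8, the RNA-binding partner of Drosha (chromosome 16, 18253948 to 18289246, minus strand), had 10.45, 20.48 and 18.86 TPM in libraries 1, 2 and 3, a mean of 16.6 ± 5.38 TPM (SD, n = 3). Its expected counts were 258, 432 and 384 in the same order. Library 1 was low and the other two were close, with a ratio of library 2 to library 3 of 1.00 (95% interval 0.872 to 1.15). The libraries differed 1.56-fold at most (adjusted p = 1.92e-08), and without library 1 the difference was lost (adjusted p = 0.986).

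The Dgcr8 messenger RNA itself carries microRNA hairpins, and the microprocessor is known to cut it there. In the Dgcr8-201 transcript, whose coding sequence spans bases 425 to 2743, the hairpin of Mir1306 lay at bases 524 to 602, inside the coding sequence in exon 2 of 14. The hairpin annotated as Gm24572, which RefSeq lists as miR-3618, lay at bases 204 to 291, in the 5′ untranslated part. The mature microRNAs cut from these hairpins are shown because they are encoded within one of the 8 genes. They were taken from RefSeq (GRCm38.p6), run 5′ to 3′, and have their seed, bases 2 to 8, in capitals.
mmu-miR-1306-5p: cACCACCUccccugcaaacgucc
mmu-miR-1306-3p: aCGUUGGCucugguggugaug
mmu-miR-3618-5p: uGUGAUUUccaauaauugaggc
mmu-miR-3618-3p: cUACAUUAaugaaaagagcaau
They lie on the minus strand of chromosome 16 at 18284288 to 18284310, 18284248 to 18284268, 18284602 to 18284623 and 18284562 to 18284583, in the order listed. No seed is shared among them. Both hairpin entries were listed at 0 counts in every library, but the gene tables gave them an effective length of 0, so that no level could be estimated for them, and mature microRNAs are not polyadenylated.

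Xpo5, which encodes the export receptor of the hairpins (chromosome 17, 46202782 to 46243598, plus strand), had 18.24, 29.79 and 34.29 TPM in libraries 1, 2 and 3, a mean of 27.4 ± 8.28 TPM (SD, n = 3). It rested on 519, 851 and 842 expected counts. The values ran from library 1 up to library 3, 1.69-fold apart after scaling (adjusted p = 1.89e-20). Without library 1 no difference was called (adjusted p = 0.124).

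Dicer1, the nuclease that cuts the exported hairpin (chromosome 12, 104687742 to 104751952, minus strand), had 5.43, 7.09 and 7.47 TPM in libraries 1, 2 and 3, a mean of 6.66 ± 1.08 TPM (SD, n = 3). Its 310, 344 and 359 expected counts spanned 1.21-fold after scaling, the narrowest span of the set. The lowest was again library 1, yet the difference did not pass the threshold of 0.05 (adjusted p = 0.0514). It did pass with size factors in place of TMM (adjusted p = 0.0427) and with library 2 left out (adjusted p = 0.0308), and also on the counts of the second gene table (adjusted p = 1.56e-04) and of the second transcript table (adjusted p = 0.0280).

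Tarbp2, which encodes the RNA-binding partner of Dicer1 (chromosome 15, 102518192 to 102523676, plus strand), was the highest by mean, with 20.49, 33.12 and 31.93 TPM in libraries 1, 2 and 3 and a mean of 28.5 ± 6.97 TPM (SD, n = 3). Because its transcripts are short, this level came from only 208, 285 and 248 expected counts. Library 1 was low and the others overlapped within counting error, with a ratio of library 2 to library 3 of 1.02 (95% interval 0.861 to 1.22). The libraries differed 1.28-fold (adjusted p = 0.0328), but not without library 1 (adjusted p = 0.890), with no filter on low counts (adjusted p = 0.0581) or in the second transcript table (adjusted p = 0.231). Of the 31-base words of Tarbp2-201, 53.9% also occurred in transcripts of other genes, the processed pseudogenes Gm18584 and Gm18561, which held at most 4.33 and 0 counts in any library.

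Among the Argonautes, Ago2 is the member known to cut its target. It lies on chromosome 15 (73095844 to 73184935, minus strand) and had 8.62, 13.25 and 13.77 TPM in libraries 1, 2 and 3, a mean of 11.9 ± 2.84 TPM (SD, n = 3). With 902, 1196 and 1121 expected counts it was the most deeply counted of the 8 genes. Library 1 was low, 1.30-fold below the highest library after scaling (adjusted p = 4.08e-08), and without it the difference was lost (adjusted p = 0.443).

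Ago1 and Ago3 lie beside each other and beside Ago4 on chromosome 4, all on the minus strand. Ago1 (126435012 to 126468583) had 4.29, 7.75 and 7.40 TPM in libraries 1, 2 and 3, a mean of 6.48 ± 1.90 TPM (SD, n = 3), from 208, 298 and 226 expected counts. The libraries differed 1.34-fold, with library 1 the lowest and library 2 the highest (adjusted p = 0.0118). That call was lost without library 1 (adjusted p = 0.207) and without library 2 (adjusted p = 0.281).

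Ago3 (126331704 to 126429556) had 10.51, 13.56 and 14.90 TPM, a mean of 13.0 ± 2.25 TPM (SD, n = 3), from 248, 302 and 358 expected counts in libraries 1, 2 and 3. Library 3 was the highest, 1.51-fold above library 1 after scaling (adjusted p = 4.02e-06). Ago3 shared with Drosha a difference between libraries 2 and 3 (adjusted p = 0.00316 without library 1), with library 3 the higher for Ago3 and library 2 the higher for Drosha. The call was lost without library 3 (adjusted p = 0.322).

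Ago4 (126489541 to 126533472), the remaining Argonaute of this family, had 0.0600, 0.0700 and 0.0300 TPM, from 3, 3 and 1 expected counts in libraries 1, 2 and 3. It was thus at or below 3 counts in each library, the limit that a count of 0 allows. That limit corresponds to 0.323, 0.326 and 0.362 CPM (counts scaled to the library total) in libraries 1, 2 and 3.

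In total 7 of the 8 genes, or 87.5%, differed between libraries beyond counting error, all except Dicer1. Among all 13071 genes tested, 54.5% were called, and among the 4282 tested genes within the same range of counts 70.8% were called. The 8 genes had a direction in common by their point values. Library 1 was the lowest for 8 of 8, both in TPM and in scaled counts. For Drosha, Dgcr8, Xpo5, Tarbp2 and Ago2 the interval of its count ratio to each other library lay below 1. Its ratio to library 2 was 0.968 (interval 0.828 to 1.13) for Dicer1 and 0.882 (0.743 to 1.05) for Ago3. For Ago1 its ratio to library 3 was 0.881 (0.726 to 1.07). Counting error thus leaves the lowest library of Dicer1, Ago3 and Ago1 undecided. Over all genes tested, library 1 was the lowest for 40.5% in scaled counts and for 64.3% in TPM. With library 1 left out, 2 of 8 genes differed, Drosha and Ago3, where 17.2% of the genes tested were called. With library 2 left out it was 7 of 8 (49.3% of all genes), and with library 3 left out 6 of 8 (46.5%). Size factors in place of TMM called 8 of 8 (54.4%), and no filter on low counts 6 of 8 (28.2%). The whole-number counts of the second gene table gave 7 of 8 (63.7%), without Ago1, and the estimated counts of the second transcript table gave 6 of 8 (47.8%), without Tarbp2 and Ago1.

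Library 1 also differed from the others with gene length. Across 10 bins of genes by length, its median deviation from the mean of the libraries, in log2 of the scaled counts, was 0.35 in the bin of shortest genes (median 615 bases) and -0.21 in the bin of longest genes (median 5477 bases). All of the 8 genes except Tarbp2 fell into the 3 bins of longest genes, in which library 1 was lowest for 66.0% of genes. Set against the median of their own bin, Ago2, Ago1 and Dicer1 deviated in library 1 by -0.02, 0.01 and 0.10. Drosha, Tarbp2, Dgcr8, Xpo5 and Ago3 deviated by -0.37, -0.37, -0.30, -0.26 and -0.13. The value for Ago3 depends on the length used, 3517 bases, although 87.8% to 92.1% of its counts lay on Ago3-201, of 15595 bases. Before the bin median was taken off, Ago3 stood at -0.26, close to the -0.21 of the longest bin. Tarbp2 stood out because it lay in the third bin, where library 1 was lowest for only 19.7% of genes. When the libraries were scaled within length bins, 5 of 8 genes still differed and 45.0% of all genes were called. Ago2 was then far from the threshold (adjusted p = 0.885), and Ago1 no longer passed (adjusted p = 0.142), whereas Xpo5 (adjusted p = 3.67e-07), Drosha (adjusted p = 6.70e-07) and Tarbp2 (adjusted p = 6.74e-05) still did.

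**Figure D2:**
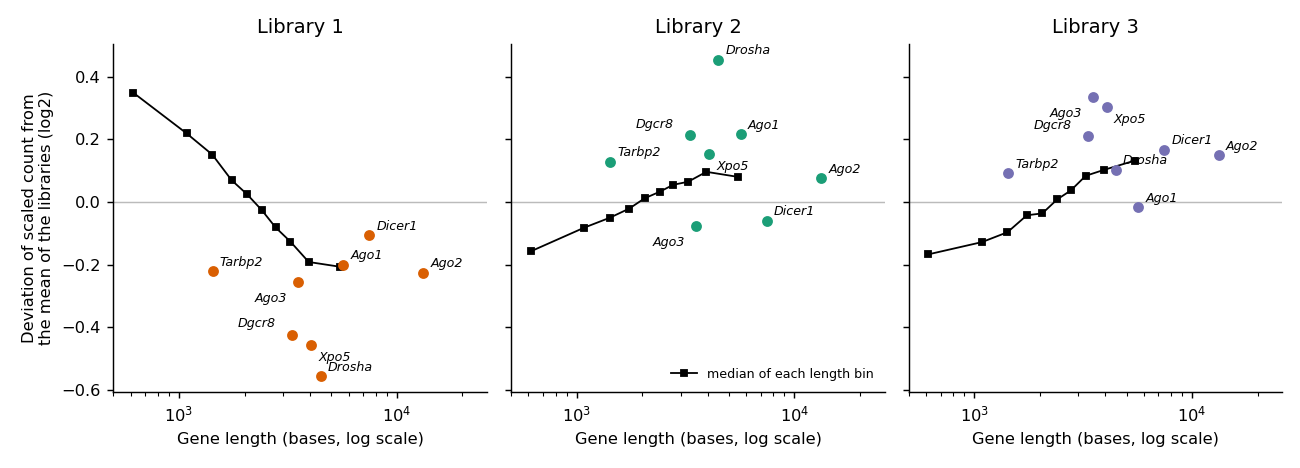
Deviation of the scaled count of each gene (coloured points, log2) from the mean of the libraries, against gene length on a log scale, with the median of each of 10 length bins as black squares, for libraries 1, 2 and 3. In library 1 the medians fall from 0.35 to -0.21 with length, Ago1, Ago2 and Dicer1 lie near or above the line, and the other 5 genes lie below it. Ago3 is drawn at 3517 bases, although most of its counts lay on a transcript of 15595 bases.

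The gene levels were next separated by transcript, since only a protein-coding transcript can supply the enzyme. Of the 8 genes, the median share of TPM on protein-coding transcripts was 61.0%, against 86.5% (quartiles 63.2% and 99.1%) for the detected protein-coding genes and 81.5% for those with 3 or more annotated transcripts. By expected counts these shares were 83.4% for the 8 genes, 94.0% for the detected protein-coding genes and 90.8% for those with 3 or more transcripts. A share below 50% of TPM was seen for 1 of 8 genes, Ago3. It was seen for 16.6% of the detected protein-coding genes and for 19.3% of those with 3 or more transcripts.

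**Figure D3:**
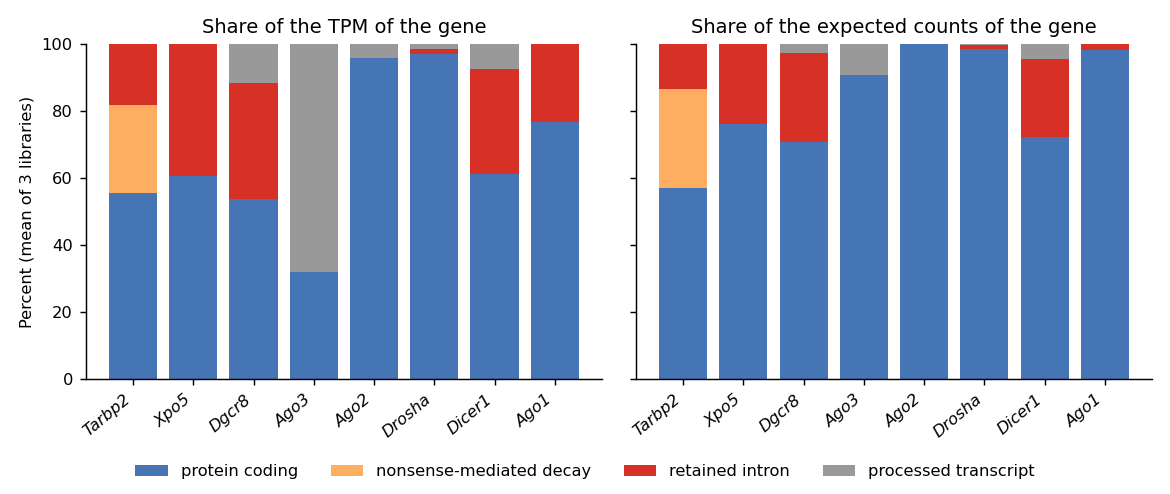
Share of the TPM of each gene (left) and of its expected counts (right) by annotated transcript class, as the mean of 3 libraries in percent. Ago2 and Drosha are almost wholly protein coding in both panels, whereas Ago3 has 31.9% of its TPM but 90.7% of its counts on protein-coding transcripts.

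In the main transcript table the single protein-coding transcript of Ago2, Ago2-201, took 94.95%, 96.22% and 95.98% of the TPM of the gene in libraries 1, 2 and 3. In the second transcript table, made from the same reads by another quantifier, it took 69.9%, 67.6% and 61.9%, and the processed transcript Ago2-203 took 22.7%, 30.1% and 35.8%. Ago1-201 took 84.05%, 78.04% and 67.69% of Ago1. Most of the rest of Ago1 was Ago1-204, a retained-intron transcript of 588 bases, at 15.95%, 18.22% and 27.97%, and this rested on only 2.28, 4.00 and 5.28 expected counts.

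Ago3 showed the widest gap between TPM and counts. The transcript with the highest share of its TPM was Ago3-202, a processed transcript of 613 bases with no coding sequence, at 48.84%, 55.22% and 47.30% in libraries 1, 2 and 3. It rested on 18.16, 22.50 and 19.08 expected counts. The full-length coding transcript Ago3-201, of 15595 bases with 2580 coding bases, took 16.66%, 18.62% and 23.06% of the TPM from 218, 268 and 330 expected counts. Of the bases of Ago3-202, 92.5% also lie in exons of Ago3-201 and 46 lie in its introns. With protein-coding transcripts alone, Ago3 had 2.73, 3.81 and 6.19 TPM and moved to the seventh place of 8. Part of this lay on Ago3-203 and Ago3-204, short transcripts of 433 and 682 bases with at most 4.34 counts each in any library. Ago3-201 alone had 1.75, 2.52 and 3.44 TPM, a mean of 2.57 TPM, below the 3.55 TPM of Dicer1-201.

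The make-up of the Argonaute pool therefore depended on the quantity used. By TPM over all transcripts, Ago3 made up 41.7% ± 2.83 of the summed Argonaute level, Ago2 37.7% ± 0.863, Ago1 20.4% ± 2.06 and Ago4 0.180% ± 0.0883 (SD, n = 3). Ago3 exceeded Ago2 in each library. By the TPM of protein-coding transcripts, Ago2 made up 55.5% ± 1.23, Ago1 24.0% ± 3.16 and Ago3 20.3% ± 4.48 (SD, n = 3), so Ago2 was first in each library. The ranges of Ago1 and Ago3 overlapped on that scale, which counts the short coding transcripts of Ago3. The full-length Ago3-201, at 1.75 to 3.44 TPM, lay below Ago1-201, at 3.61 to 6.05 TPM. By expected counts, which are not per length and so give no order of levels, Ago2 held 66.2% ± 0.398, Ago3 18.7% ± 2.14 and Ago1 15.03% ± 1.68 (SD, n = 3). The share of Ago2 varied little between libraries on every one of these scales, although its level differed 1.30-fold in scaled counts.

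**Figure D4:**
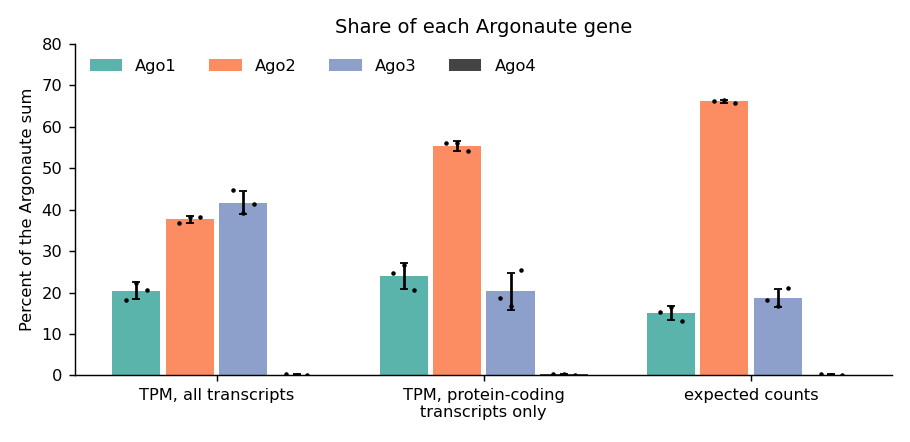
Share of Ago1, Ago2, Ago3 and Ago4 in the Argonaute sum, in percent, by TPM over all transcripts, by TPM over protein-coding transcripts and by expected counts. Bars give the mean and error bars the SD of 3 libraries, and dots the libraries; Ago3 leads with 41.7% in the left group and Ago2 leads with 55.5% in the middle group.

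Retained-intron transcripts took on average 39.4% of the TPM of Xpo5, 34.5% of Dgcr8, 31.2% of Dicer1, 23.4% of Ago1, 18.3% of Tarbp2 and 1.61% of Drosha. For Xpo5 they took 54.6%, 27.5% and 36.0% of the TPM in libraries 1, 2 and 3, and the coding Xpo5-201 took 45.37%, 72.53% and 63.97%. Library 1 thus had both the lowest total of Xpo5 and the highest retained-intron share. On coding transcripts alone Xpo5 had 8.28, 21.61 and 21.94 TPM, a wider gap between library 1 and the others than over all transcripts. For Dgcr8 retained-intron transcripts took 36.1%, 28.5% and 38.9%, and Dgcr8-201 took 48.28%, 59.11% and 53.07%. For Dicer1 they took 34.8%, 29.0% and 29.9%, mostly as Dicer1-202, of whose 6904 bases 5934 lie in introns of Dicer1-201. Dicer1-201 itself took 52.86%, 51.25% and 55.61%. In the second transcript table the mean share was 36.6% for Dgcr8-201 and 38.6% for Dicer1-201, and retained-intron transcripts took 40.5% of Dgcr8 and 40.1% of Dicer1. Xpo5-201 took 65.7%, 79.4% and 72.0% there in libraries 1, 2 and 3, lowest in library 1 but above 50% throughout. The retained-intron transcript Xpo5-202 took 0.0375% of Xpo5 there in library 1, against 22.35% in the main transcript table.

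Transcripts annotated for nonsense-mediated decay, a pathway that degrades messages with an early stop, were listed only for Tarbp2 (3) and Ago1 (1) of the 8 genes. That of Ago1 had 0 TPM in every library. Those of Tarbp2 took 20.3%, 25.8% and 32.7% of its TPM in libraries 1, 2 and 3. Tarbp2-201, the leading coding transcript, took 52.64%, 46.29% and 44.22%. On coding transcripts alone Tarbp2 had 12.42, 18.53 and 15.86 TPM, below Xpo5 in libraries 2 and 3.

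Drosha was nearly all protein coding, but its coding transcripts changed places between libraries. Drosha-201 took 1.21%, 83.58% and 73.91% of the TPM in libraries 1, 2 and 3, and Drosha-207 took 96.97%, 8.98% and 26.09%. The transcripts hold the same 4119 coding bases. They differ in blocks of 48 and 4 bases of 5′ untranslated sequence that only Drosha-207 has (chromosome 15, 12824815 to 12824862 and 12824939 to 12824942) and in 1 base at the 3′ end. In the second transcript table Drosha-201 took 98.6%, 92.6% and 60.8% of Drosha, so the placing of library 1 on Drosha-207 was not found there. The gene level given above is the sum over these transcripts.

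The second gene table, of whole-number counts on the older GENCODE M4 annotation, gave another view of the same reads. After centring on the median ratio of all genes, 2 of the 8 genes, Ago1 and Ago2, were more than 2-fold lower in the second gene table than in the expected-count table in all 3 libraries. Among the 10091 genes compared, 12.6% were lower by this rule. Ago1 had 46, 50 and 37 counts in the second gene table, against 208, 298 and 226 expected counts in libraries 1, 2 and 3, a fold of 0.151. Ago2 had 172, 248 and 261 counts in the second gene table, against 902, 1196 and 1121 expected counts, a fold of 0.173. In log2 the gap was -2.73 ± 0.247 for Ago1 and -2.53 ± 0.132 for Ago2 (SD, n = 3), so it far exceeded the spread between libraries.

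Ago3 had 191, 294 and 343 counts in the second gene table, against 248, 302 and 358 expected counts, a fold of 0.741. By counts, which are not per length, Ago3 was thus above Ago2 in each library in the second gene table and below it in the expected-count table. The 3′ untranslated region is 4494 bases of the 7227 of Ago1-201, 11067 of the 13800 of Ago2-201 and 12745 of the 15595 of Ago3-201 in the M21 annotation. The gene models of the M4 annotation were not used here, and the part of the annotation in the gap was not tested. Drosha was the only one of the 8 genes that was more than 1.5-fold higher in the second gene table in all 3 libraries, with 359, 710 and 558 counts there, against 177, 384 and 268 expected counts. By that rule 9.59% of genes were higher. The other 4 genes were within 0.862- to 1.05-fold.

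**Figure D5:**
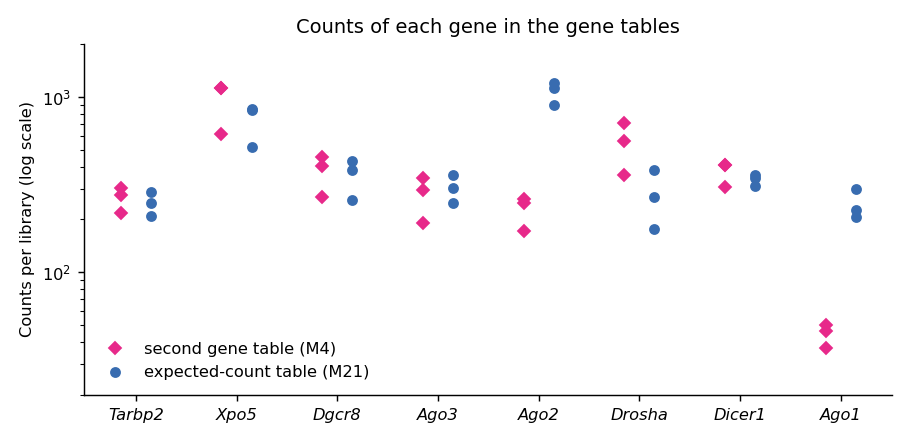
Counts of each gene per library on a log scale in the second gene table (diamonds, GENCODE M4) and in the expected-count table (circles, GENCODE M21). Ago1 and Ago2 lie far lower in the second gene table, at 37 to 50 and 172 to 261 counts, and Drosha lies higher, at 359 to 710.

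The second transcript table agreed more closely with the gene levels. None of the 8 genes differed from the gene table by more than 2-fold after centring, where 3.64% of 11167 genes did. Ago3 was the nearest to that limit, with log2 differences of 0.71, 0.96 and 0.90 in libraries 1, 2 and 3, and was the only one of the 8 past 1.5-fold, as were 8.06% of genes. Uncentred TPM of the second transcript table are not directly comparable with the gene levels. Their median log2 ratio to the gene TPM was -0.918, -0.793 and -0.796 in libraries 1, 2 and 3. The pseudogene entry Gm29013 took 26.1%, 19.1% and 19.6% of the TPM there in the same order. The part of this entry in the shift was not tested.

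Overlapping and similar genes set a limit on some of these counts. Dgcr8 shares 825 exon bases with Trmt2a on the opposite strand, which had 38.11, 53.37 and 60.94 TPM in libraries 1, 2 and 3. Ago2 shares 219 exon bases with Chrac1 on the opposite strand, which had 156, 133 and 110 TPM. The sources used here do not give the strand setting of the counting, so reads in those bases cannot be assigned with certainty. The Argonautes shared little sequence with each other. Of the 31-base words of Ago1-201, 2.26% occurred in other Argonaute transcripts, against 0.900% for Ago3-201 and 0.167% for Ago2-201.

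Of 51 other genes of the pathway, 44 were detected, and 39 of the 45 with enough counts differed between libraries. Over all genes tested 54.5% differed. That share is not matched for counts, on which the call depends, and no matched share was computed for this list. Without library 1, 11 of the 45 differed, where 17.2% of all genes were called. Library 1 was the lowest for 22 of these 45 in scaled counts and for 36 in TPM, beside 40.5% and 64.3% of all genes tested and 8 of 8 in the core set on both scales. All 10 partners of the microprocessor were detected. The RNA-binding protein gene Hnrnpa2b1 and the helicase gene Ddx5 were the highest, at 1107 ± 80.7 and 342.5 ± 35.6 TPM (SD, n = 3). The helicase gene Ddx17 and the RNA-binding protein gene Khsrp were the lowest, at 28.5 ± 7.12 and 11.5 ± 0.949 TPM (SD, n = 3). The mean level of Drosha itself was below that of each of these partners, although in library 2 it was above that of Khsrp.

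All 5 partners of export and dicing were detected. Ran, the GTPase that exportin 5 needs, had 193, 186 and 184 TPM in libraries 1, 2 and 3, and Tsn averaged 184 ± 18.7 TPM (SD, n = 3). Tsnax was the second lowest, at 58.4 ± 12.3 TPM (SD, n = 3). Prkra, the other RNA-binding partner of Dicer1, was the lowest, with 6.54, 7.33 and 6.94 TPM in libraries 1, 2 and 3. Its mean of 6.94 ± 0.395 TPM was below the 28.5 TPM of Tarbp2, and the ranges of these 2 partners did not overlap. No difference between libraries was called for Prkra (adjusted p = 0.625).

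All 7 chaperones that load Argonautes were detected, from Hspa8 at 2692 ± 400.4 TPM and Hsp90ab1 at 941 ± 49.8 TPM down to Stip1 at 105 ± 14.8 TPM and Fkbp4 at 50.6 ± 19.1 TPM (SD, n = 3). Each of these was above each of the Argonaute genes in every library. Among 18 silencing effectors, which include Ago4, 16 were detected. The deadenylase complex gene Pan3 and the helicase gene Ddx6 were the highest, at 118 ± 29.95 and 73.7 ± 15.1 TPM (SD, n = 3). Trim71 was listed at 0 counts in every library, and Ago4 was the next lowest.

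Of 8 genes of tailing and turnover, 6 were detected, with the nuclease gene Xrn2 at 133 ± 16.3 TPM and the uridylyl transferase gene Tut4 at 61.6 ± 8.68 TPM (SD, n = 3) the highest. The other two were Lin28a and Lin28b, which encode proteins that block the processing of let-7 microRNAs. Lin28a had 0, 1 and 1 expected counts and Lin28b 3, 0 and 1 in libraries 1, 2 and 3. None of the 3 germline Argonautes was detected. Piwil2 came nearest, with 0.550, 0.910 and 0.800 TPM from 21, 21 and 15 counts, Piwil4 averaged 0.320 TPM, and Piwil1 had 1 count in library 1 alone.

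Polyadenylated host transcripts that hold a microRNA hairpin are substrates of the microprocessor. The annotated exons of Mir142hg do not hold the arms of miR-142a, so its level below is not that of such a substrate. Of 10 genes named as microRNA hosts in the annotation, 4 were detected. That count was 2 at a threshold of 5 TPM and 8 by posterior mean TPM, the last of which takes in genes with 0 counts in every library. Mir142hg had 59.40, 34.53 and 31.94 TPM in libraries 1, 2 and 3, from 47, 23 and 19 counts. Mir155hg had 28.20, 22.32 and 24.27 TPM from 248, 167 and 164 counts. Library 1 was the highest for both, and both differed between libraries (adjusted p = 0.00104 for Mir142hg and 8.98e-06 for Mir155hg). These hosts are short, and in library 1 Mir142hg deviated by 0.78 in log2 of the scaled counts where the median of its length bin was 0.35, and Mir155hg by 0.40 where that median was 0.15. Mir17hg had 2.32, 5.50 and 2.73 TPM from 63, 127 and 57 counts, with library 2 the highest (adjusted p = 4.27e-06). Mir22hg had 2.98, 2.31 and 2.14 TPM from 38, 25 and 21 counts and did not pass the test (adjusted p = 0.0938). Mir670hg, Mir124-2hg, Mir9-3hg and Mir124a-1hg had 0 counts in every library, Mir133a-1hg had 1 count in library 2 alone, and Mir99ahg had 3, 5 and 4 counts.

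MicroRNAs that lie within the detected host genes are shown to identify them, in the same form and from the same source as those of Dgcr8. For Mir155hg and Mir22hg only 1 arm is shown, and for the Mir17hg cluster only the arms that share a seed.
mmu-miR-142a-5p: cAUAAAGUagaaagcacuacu
mmu-miR-142a-3p: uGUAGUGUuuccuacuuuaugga
mmu-miR-155-5p: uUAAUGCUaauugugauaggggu
mmu-miR-17-5p: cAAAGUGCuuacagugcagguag
mmu-miR-20a-5p: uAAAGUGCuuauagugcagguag
mmu-miR-19a-3p: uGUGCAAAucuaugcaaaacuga
mmu-miR-19b-3p: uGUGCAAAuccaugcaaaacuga
mmu-miR-22-3p: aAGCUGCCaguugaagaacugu
In Mir17hg on chromosome 14, miR-17-5p (115043684 to 115043706) and miR-20a-5p (115044183 to 115044205) share one seed, and miR-19a-3p (115044048 to 115044070) and miR-19b-3p (115044358 to 115044380) share another. The sequence of miR-155-5p lies in an exon of Mir155hg on chromosome 16 (84714143 to 84714165), and that of miR-22-3p in an exon of Mir22hg on chromosome 11 (75463772 to 75463793). The arms of miR-142a (chromosome 11, 87756867 to 87756887 and 87756903 to 87756925) lie in no annotated exon of Mir142hg. These are levels of host transcripts, and the mature microRNAs were not measured in these libraries.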

How the data were processed

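Polyadenylated RNA of regulatory T cells was sequenced in 3 technical replicate libraries of 1 sample. The authors deposited, per library and per the file headers, a gene table with expected counts and TPM, a transcript table that adds the percent of the TPM of a gene on each transcript, and another transcript table with estimated counts and TPM, all on mm10 and GENCODE M21 per the deposited readme. They also deposited a gene table of whole-number counts on GENCODE M4, a unit read from its values. The aligner, quantifiers, counter and strand setting: not given in the sources used here.

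Expected counts were rounded for tests. The counts of each gene with 30 or more were set against TMM-scaled totals (edgeR 4.0.16, R 4.3.3) in a chi-square test of homogeneity over the libraries. The p-values were adjusted by Benjamini-Hochberg over all genes tested and called below 0.05. The test was tested on simulated data. Ratios of counts have exact binomial 95% intervals. Entries outside mouse genes, 0.117% to 0.135% of counts, were left out. Tables were compared after centring on the median ratio, at 1 or more CPM or TPM in both. Symbols came from the annotation, microRNA sequences from RefSeq (GRCm38.p6). Of the other genes of the pathway, the 2 highest and 2 lowest of each role group were named, with Ago4, Prkra, Ran and each gene at 0 counts. The members and lists were chosen with earlier results of these data known. Alternatives were other scalings, filters, thresholds, tables and leaving out each library. Python 3.11.15 was used.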

Additional observations from a re-analysis of the deposited data

How the results depend on the processing

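All 8 genes stayed above 1 TPM with posterior mean TPM, with the second transcript table, with protein-coding transcripts alone and without each library in turn, and 7 of 8 reached 5 TPM in every library. The number of the 8 genes that differed between libraries ranged from 2 to 7 when a library was left out. That of the 45 other pathway genes tested was 11, 31 and 34 without libraries 1, 2 and 3. Over all genes tested 17.2%, 49.3% and 46.5% were called in the same order, so the lowest was without library 1 there too. The median level of the 8 genes, 12.4 TPM, was 9.37 TPM in the second transcript table, 16.6 TPM there after centring and 9.09 TPM on protein-coding transcripts. The share of Ago2 among the Argonautes, 37.7% by TPM, was 35.5% by posterior mean TPM, 32.0% in the second transcript table, 55.5% on protein-coding transcripts and 66.2% by expected counts. By its mean share over the libraries, a transcript held more than 50% of its gene for 4 genes by the second transcript quantifier, against 7 by the percent column of the main one. Not all of those 7 passed 50% in each library, such as Drosha-201 at 1.21%, 83.58% and 73.91% in libraries 1, 2 and 3. The number of detected host genes, 4, was 2 at a threshold of 5 TPM and 8 by posterior mean TPM. The count of 8 takes in genes with 0 counts in every library and so is no measure of detection. Between the transcript quantifiers 1 gene differed at 1.5-fold and 0 at 2-fold. The cause of these shifts was not tested. The order of levels did depend on the setting: Ago3 led the Argonautes by TPM and Ago2 on protein-coding transcripts, where Xpo5 was also above Tarbp2 by mean. The settings on protein-coding transcripts, on centring and on expected-count shares were chosen after seeing the data. Depth limits the genes and transcripts with few counts most, such as Ago4, Ago3-202 and Ago1-204. No paired analysis was possible because all libraries belong to 1 group.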
